A study of Mus musculus with 22 samples.

Results

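The 10 genes described here encode adhesion and homing receptors of blood progenitors, namely the integrin alpha subunits Itga4, Itga5, Itga6, Itgal and Itgam, the integrin beta subunits Itgb1, Itgb2 and Itgb7, the chemokine receptor Cxcr4 and the selectin ligand Selplg. They were chosen as a named list, with earlier results of these data known, out of 47311 genes to which the deposited transcripts could be assigned, and all 10 passed the filter on low counts in every comparison. The 22 RNA-seq libraries come from bone marrow of Arid1a f/f;Mx1-Cre+ mice (KO) and of littermates of the same sex with the genotype Arid1a f/f;Mx1-Cre- (WT). Every mouse carried floxed Arid1a alleles on a C57BL/6 background and received 5 doses of poly(I:C) from an age of 8 to 14 weeks, and cells were sorted 4 weeks later. Mx1-Cre is driven by an interferon-inducible promoter that also responds outside blood cells, and the WT mice lack Cre, so they control for poly(I:C) but not for Cre itself. CMP, GMP and MEP cells (common myeloid, granulocyte-macrophage and megakaryocyte-erythroid progenitors) came from 3 WT mice (300, 305 and 309) and 3 KO mice (301, 304 and 308), and each of these mice gave all 3 populations. Long-term hematopoietic stem cells (LT-HSC) came from other mice, with 2 WT and 2 KO libraries, and their cDNA was made with a different kit.

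Integrins are receptors made of 1 alpha and 1 beta chain, which bind matrix or counter-receptors on neighbouring cells. Pairs that contain Itgb1 or Itgb7 hold progenitors to fibronectin, laminin, VCAM-1 or MAdCAM-1, and pairs that contain Itgb2 are the leukocyte integrins that bind ICAMs and complement. CXCR4, the receptor of CXCL12, retains stem and progenitor cells in the marrow, and PSGL-1, the product of Selplg, slows circulating cells on selectins of the vessel wall before integrins arrest them.

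Of these genes, Itgam and Itgb7 had the largest rises in KO, and Itga5 and Itgb1 fell together in CMP and GMP. The promoters of those 4 genes are shown for this reason, from 250 to 11 bases upstream of the RefSeq start (GRCm38.p6), 5′ to 3′ on the gene's strand. The window of Itgam is chr7:128062390-128062629 on the plus strand, that of Itgb7 chr15:102231946-102232185 on the minus strand, that of Itga5 chr15:103366802-103367041 on the minus strand, and that of Itgb1 chr8:128685404-128685643 on the plus strand. Capitals mark matches to 4 short motifs of blood transcription factors, searched on both strands.
Itgam: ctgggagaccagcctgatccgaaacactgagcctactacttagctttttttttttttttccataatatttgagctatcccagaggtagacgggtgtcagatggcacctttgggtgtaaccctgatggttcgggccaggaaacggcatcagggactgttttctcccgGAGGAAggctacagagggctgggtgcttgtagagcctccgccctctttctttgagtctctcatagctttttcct
Itgb7: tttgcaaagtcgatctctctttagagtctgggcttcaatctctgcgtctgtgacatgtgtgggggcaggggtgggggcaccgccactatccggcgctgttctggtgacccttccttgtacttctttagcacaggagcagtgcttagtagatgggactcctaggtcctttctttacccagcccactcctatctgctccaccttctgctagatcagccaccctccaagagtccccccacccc
Itga5: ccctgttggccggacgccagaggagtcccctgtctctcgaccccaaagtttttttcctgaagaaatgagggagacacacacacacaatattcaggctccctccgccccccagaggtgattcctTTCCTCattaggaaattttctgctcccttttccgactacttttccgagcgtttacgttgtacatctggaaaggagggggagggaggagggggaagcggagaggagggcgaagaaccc
Itgb1: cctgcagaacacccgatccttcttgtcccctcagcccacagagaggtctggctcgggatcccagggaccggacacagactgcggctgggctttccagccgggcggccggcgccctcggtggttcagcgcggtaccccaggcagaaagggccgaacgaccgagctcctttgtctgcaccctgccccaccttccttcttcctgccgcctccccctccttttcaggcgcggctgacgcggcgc
The ETS core that PU.1 can bind (GAGGAA) matched once in Itgam, from 84 to 79 bases upstream, and once in Itga5 as TTCCTC, from 127 to 122 bases upstream. The same letters occur in 22.3% of the 32851 promoter windows of this length in the RefSeq table. RUNX letters (TGTGGT or TGCGGT, in 18% of windows), GATA letters (AGATAA or TGATAA, in 16.2%) and C/EBP letters (TTGCNNAA, in 9.29%) did not occur in these 4 windows, and no match overlapped another. Of the other members, Itga4 and Cxcr4 also have a window in the table. The RUNX letters occurred in that of Itga4 as ACCACA, from 60 to 55 bases upstream, and none of the motifs occurred in that of Cxcr4. Itga6, Itgal, Itgb2 and Selplg are named only. A match is a description of the letters and was not tested for binding.

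Between 40804031 and 65930737 estimated counts per library fell on genes. Arid1a, the targeted gene, was lower in every KO library than in every WT library of the same population on the CPM scale (counts scaled to library size after TMM normalization), at 50.9 to 53.6 against 110.9 to 119 CPM in LT-HSC, 365 to 402 against 426 to 451 CPM in CMP, 239 to 281 against 303 to 405 CPM in GMP, and 257 to 285 against 289.9 to 304 CPM in MEP. On the TPM scale the groups overlapped in CMP and MEP. With edgeR the difference passed in CMP, GMP and MEP (adjusted p = 0.0284, 0.0246 and 0.0836) but not in LT-HSC (0.421), and in CMP and MEP it was lost when the 18 precursor libraries were fitted together (0.104 and 0.293). It was also lost in CMP without mouse 309 (0.106), and in MEP without mouse 300, 304, 308 or 309 (0.184 to 0.244) or without the filter on low counts (0.129), while in LT-HSC it passed without either WT replicate (0.00911 and 0.000184) and with DESeq2 (0.0332). These sums over the whole gene do not show the loss of the floxed exon itself. In LT-HSC the libraries stood apart from each other. WT replicate 1 reached 10 counts for 27191 genes while the other 3 reached it for 18504 to 22407, WT replicate 2 had a summed level of 8 late neutrophil markers of 2389 TPM against 370 to 374 TPM in the other 3, and KO replicate 2 had 3370 TPM over 5 eosinophil markers against 40.2 to 219.5 TPM. Genes of the LT-HSC list (Procr and others) summed to 778 to 997 TPM in WT LT-HSC and to at most 94.1 TPM in WT precursors, but the 8 erythroid markers also summed to 2416 and 3376 TPM in the 2 WT LT-HSC libraries, above the 954 to 1050 TPM of WT CMP. The LT-HSC list summed to 583 to 762 TPM in KO LT-HSC, below the WT libraries. After TMM normalization its median log2 fold change was 0.036, against -0.158 over all genes tested, so the lower sum is a result in TPM only. Mean Procr was 140.8 TPM in WT and 65.25 TPM in KO LT-HSC, and Slamf1 went the other way (15.2 and 31.0 TPM). Of the 7 genes of that list 0 passed in LT-HSC. Mpo led the list of myeloid progenitors in WT GMP at a mean of 16560 TPM, and Car1 led the erythroid list in WT MEP at 4499 TPM. In bulk samples such as these, fewer cells of a type and less RNA per cell cannot be told apart.

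The first question was how the receptors are distributed over normal progenitors. Per transcript length, WT LT-HSC carried mostly Selplg, at 236 ± 64.2 TPM (SD, n = 2; TPM is kallisto's length-scaled transcript abundance), followed by Itgb1 at 79.6 ± 7.06 TPM and Itga6 at 78.4 ± 25.6 TPM. Cxcr4 was the lowest member in these cells, at 6.66 ± 0.94 TPM. In WT GMP it was the highest, at 176 ± 13.3 TPM (SD, n = 3). WT MEP carried chiefly Itgb1 (104 ± 1.48 TPM), Itga4 (53.3 ± 4.58 TPM) and Itga5 (52.2 ± 2.82 TPM), and Itgam was close to absent there at 0.488 ± 0.109 TPM. The LT-HSC libraries differ from the others by mouse and by kit as well as by cell type, which cannot be told apart, so their levels are set beside the others with no test.

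**Figure D1:**
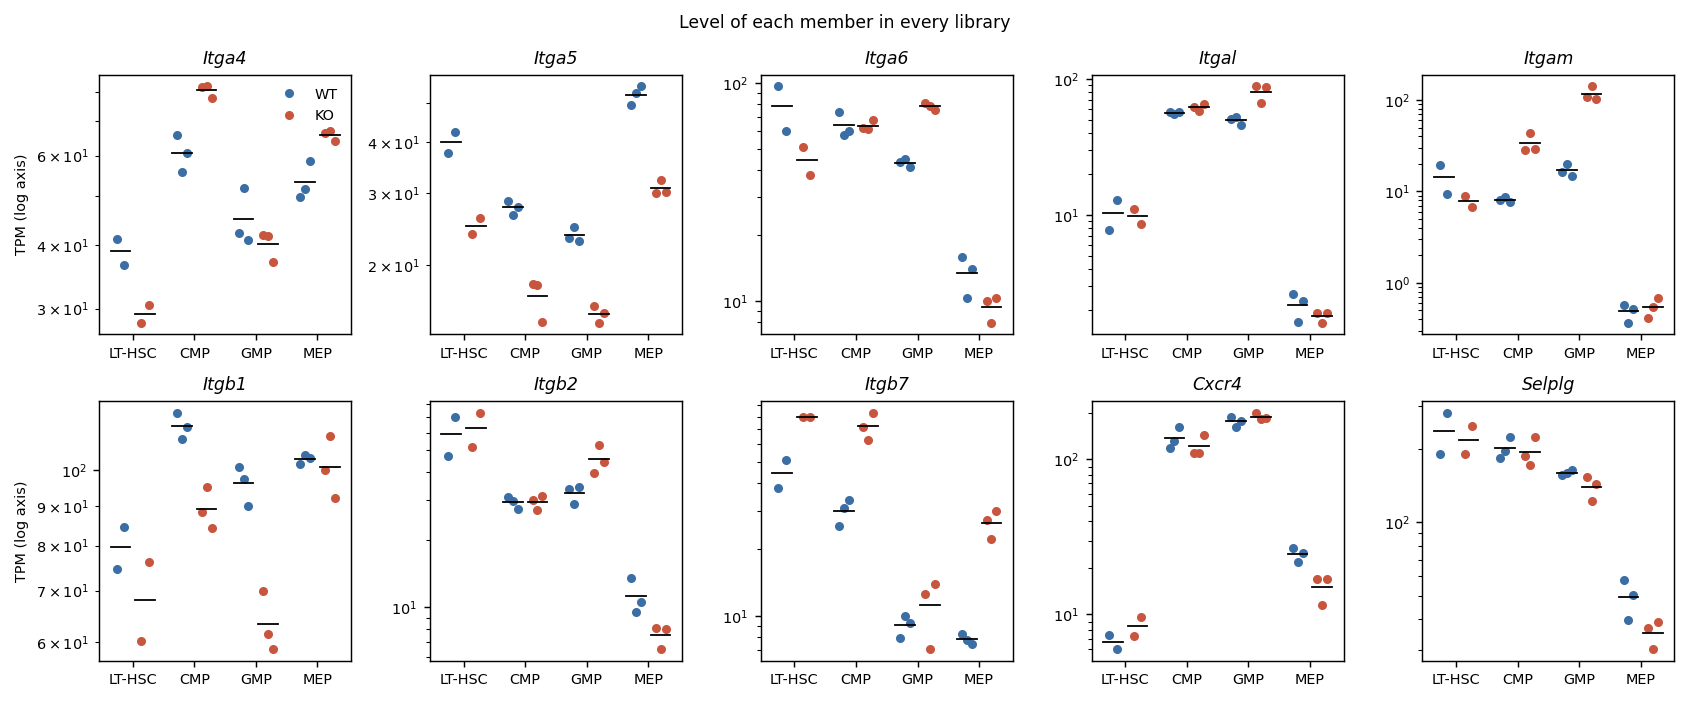
TPM of each member (log axis) in every library, by population, for WT (blue) and KO (red), where each point is 1 library and the bar is the group mean. Itgam in GMP lay at 103 to 142 TPM in KO and at 14.8 to 19.9 TPM in WT, and Itgb7 was higher in KO LT-HSC, CMP and MEP than in WT.

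Among the 3 precursor populations, 9 of the 10 members differed between WT MEP and WT CMP at an FDR of 0.1 (edgeR's quasi-likelihood test with the mouse as a block, Benjamini-Hochberg adjustment over all genes), where 70.6% of all genes tested passed. Between WT GMP and WT MEP 9 passed as well (70.7% of all genes), and between WT GMP and WT CMP 5 passed (45.2% of all genes). These shares are so high across the transcriptome that the counts of members say little by themselves, and the sizes of the differences are more informative.

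The 2 alpha chains that pair with Itgb2 were scarce in MEP. Itgal, the alpha chain of LFA-1, had 56.8 ± 0.77 TPM in WT CMP, 49.9 ± 3.24 TPM in WT GMP and 2.19 ± 0.509 TPM in WT MEP (SD, n = 3 each). On the count scale it was 20.6-fold lower in MEP than in CMP (log2 fold change -4.36, SE 0.12, adjusted p = 1.97e-11), and GMP and CMP were not distinguished (log2 fold change -0.01, SE 0.10, adjusted p = 0.970, with the sign turning under other scalings). Itgam, the alpha chain of Mac-1 or CD11b, had 8.12 ± 0.497 TPM in CMP, 17.0 ± 2.61 TPM in GMP and 0.488 ± 0.109 TPM in MEP. It was 2.28-fold higher in GMP than in CMP (log2 fold change 1.19, SE 0.16, adjusted p = 5.54e-05) and 32.6-fold higher in GMP than in MEP (log2 fold change 5.03, SE 0.22, adjusted p = 1.31e-10). In WT LT-HSC Itgal was at 10.4 ± 3.65 TPM and Itgam at 14.5 ± 7.28 TPM (n = 2). Their beta chain Itgb2 varied less, with 58.8 ± 16.4 TPM in LT-HSC, 29.4 ± 1.82 TPM in CMP, 32.3 ± 2.999 TPM in GMP and 11.2 ± 2.09 TPM in MEP, and its fall from CMP to MEP was 2.24-fold (adjusted p = 3.77e-06).

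Of the chains that can bind fibronectin, Itga5 was higher in MEP, and Itgb1 and Itga4 differed little between the 3 precursor populations. Itga5 was highest in WT MEP (52.2 TPM), followed by LT-HSC (39.95 ± 3.40 TPM), CMP (27.7 ± 1.07 TPM) and GMP (23.6 ± 0.981 TPM), and MEP exceeded CMP 2.35-fold (log2 fold change 1.23, SE 0.07, adjusted p = 2.33e-09), while GMP and CMP did not pass (adjusted p = 0.446). Its partner Itgb1, the common beta chain of progenitor integrins, was the most even member, between 79.6 TPM in LT-HSC and 114 ± 4.42 TPM in CMP. Its difference between MEP and CMP passed on the count scale (log2 fold change 0.15, SE 0.06, adjusted p = 0.0259) but not on counts of protein-coding transcripts alone (log2 fold change 0.05, adjusted p = 0.436), and the mean TPM was lower in MEP. A transcript marked for nonsense-mediated decay, Itgb1-202, held 12.8% to 13.8% of the Itgb1 TPM in WT MEP and 7.10% to 8.07% in WT CMP. Itga4 pairs with Itgb1 as VLA-4 and with Itgb7 as the MAdCAM-1 receptor. Among precursors it was also even, at 60.7 ± 5.02 TPM in CMP, 53.3 TPM in MEP and 45.0 ± 6.01 TPM in GMP. In WT LT-HSC Itga4 was at 38.9 ± 3.22 TPM (n = 2). The coding transcript Itga4-201 held 34.0% to 42.2% of that level, against 94.5% to 95.8% in WT CMP. CMP and MEP were not distinguished for Itga4 (adjusted p = 0.424), and GMP was 1.20-fold below CMP (adjusted p = 0.0278).

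Itga6, Itgb7, Cxcr4 and Selplg were each lower in WT MEP than in WT CMP. Itga6, a laminin receptor chain, stepped down from 78.4 TPM in LT-HSC and 63.9 ± 8.64 TPM in CMP to 43.2 ± 1.90 TPM in GMP and 13.5 ± 2.83 TPM in MEP, and each step among precursors passed the test (1.33-fold from CMP to GMP and 3.15-fold between GMP and MEP). Itgb7 was at 44.4 ± 8.84 TPM in LT-HSC and 30.0 ± 4.01 TPM in CMP but only 9.07 ± 1.04 TPM in GMP and 7.85 ± 0.417 TPM in MEP, where GMP and MEP were not distinguished (adjusted p = 0.862). Cxcr4 was 4.73-fold lower in MEP than in CMP and 1.41-fold higher in GMP than in CMP (adjusted p = 6.55e-09 and 0.00774). Selplg fell from 200 ± 20.4 TPM in CMP to 49.4 ± 9.24 TPM in MEP (3.26-fold on counts, adjusted p = 8.02e-09), and CMP and GMP (159 ± 3.51 TPM) did not differ beyond the threshold (adjusted p = 0.177).

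The second question was which receptors change when Arid1a is deleted. For these comparisons the values are CPM after TMM normalization within a population, since log2 fold changes were fitted on that scale, and WT values are given for mice 300, 305 and 309 and KO values for mice 301, 304 and 308. At an FDR of 0.1, 5 members passed in CMP (3 higher and 2 lower, where 23.4% of all genes passed), 7 in GMP (5 higher and 2 lower, 33.9% of all genes), 7 in MEP (2 higher and 5 lower, 29.4% of all genes) and 0 in LT-HSC (0.0792% of all genes). The median log2 fold change of the 10 members in CMP, GMP and MEP was -0.09, 0.34 and -0.49, against -0.003, -0.006 and -0.002 over all genes tested. Each member passed in at least 1 precursor population, 8 passed in at least 2, and Itga5 alone passed in all 3. The shares of all genes that meet these joint criteria were not counted, so these numbers have no baseline and say little by themselves. Cxcr4, Itga6 and Itgb2 passed in opposite directions in GMP and MEP. In LT-HSC the log2 fold changes were -0.59 for Itga6 (SE 0.29), -0.20 for Itga4 (SE 0.29) and -0.11 for Itgal (SE 0.37). They were 0.52 for Cxcr4 (SE 0.61), 0.39 for Itgb2 (SE 0.36), 0.11 for Selplg (SE 0.38) and 0.02 for Itgb1 (SE 0.34). Their adjusted p-values by edgeR ran from 0.876 to 0.992. Those of Itgam, Itgb7 and Itga5 are given below.

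**Figure D2:**
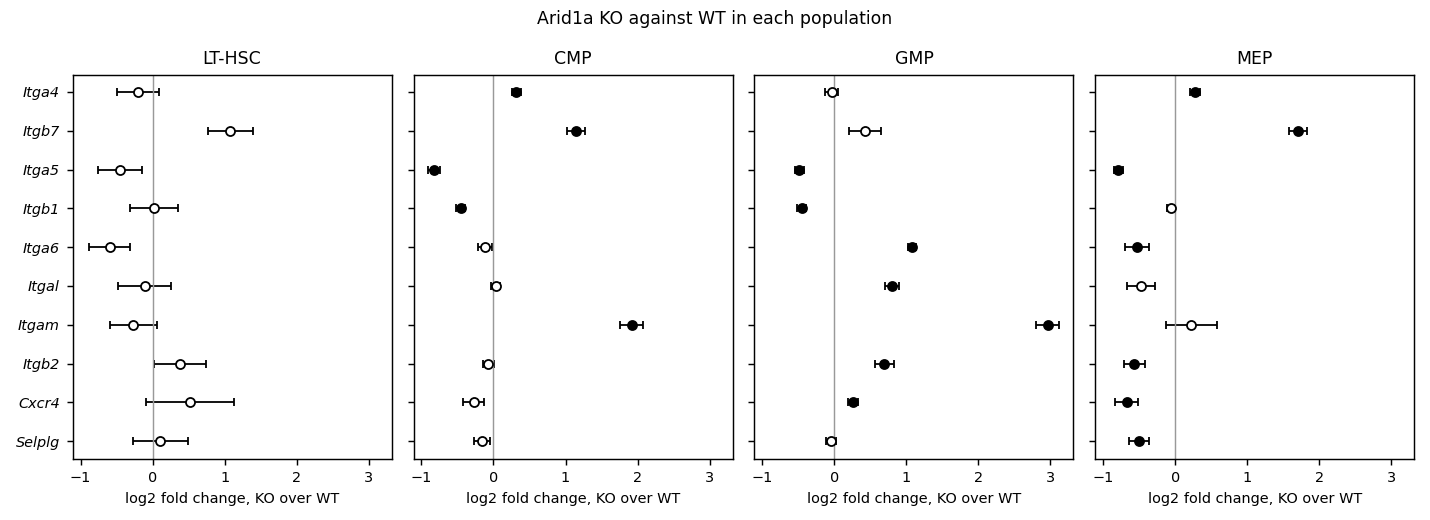
log2 fold change of KO over WT for each member (rows) in each population (panels), fitted with edgeR, with bars of 1 SE and filled points for an FDR under 0.1. Itgam in GMP (2.96) and CMP (1.92) and Itgb7 in MEP (1.70) had the largest changes, and Itga6, Itgb2 and Cxcr4 lay on opposite sides of 0 in GMP and MEP.

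Itgam had the largest change of any member. In GMP it had 51.0, 60.4 and 45.4 CPM in the WT mice and 350.3, 505 and 364 CPM in the KO mice, so every KO mouse was far above every WT mouse. The rise was 7.77-fold (log2 fold change 2.96, SE 0.16, adjusted p = 5.63e-06), and it stayed between 2.77 and 3.06 on the log2 scale when any 1 library was left out. In CMP it went from 25.7, 27.1 and 25.7 CPM to 82.2, 129 and 85.4 CPM, a 3.78-fold rise (log2 fold change 1.92, SE 0.16, adjusted p = 0.000146). MEP stayed at a level of 0.80 to 2.01 CPM in WT and 1.39 to 2.22 CPM in KO, with overlapping groups and an adjusted p of 0.711. The LT-HSC values also showed no passing difference, at 37.8 and 27.2 CPM in WT and 27.8 and 26.3 CPM in KO (log2 fold change -0.26, SE 0.32, adjusted p = 0.883).

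Markers of other myeloid cells moved in the same libraries as Itgam. In GMP the summed level of 8 late neutrophil markers was 144 to 346.5 TPM in WT and 311.5 to 1204 TPM in KO, led by S100a8, and 3 of the 7 tested rose (Camp, Mmp8 and S100a8) while Ltf and Mmp9 fell. The surface marker of mature neutrophils, Ly6g, and Mmp9 were under 1 TPM in every KO GMP library. The 8 monocyte and macrophage markers summed to 230.5 to 348 TPM in WT GMP and 173.5 to 206 TPM in KO GMP, with Adgre1 and Ms4a6c higher and Cd68, F13a1, Ly86 and Vcam1 lower. Eosinophil markers fell from 3924 to 8789 TPM in WT GMP to 1122 to 2147 TPM in KO GMP, with 4 of 5 genes passing, and basophil and mast cell markers from 999 to 1476 TPM to 315 to 380 TPM, with 6 of 7 genes passing. In CMP the late neutrophil list ran opposite to Itgam, at 65.6 to 304 TPM in WT and 36.6 to 72.6 TPM in KO with 5 of 7 tested genes lower. The sorting gates used CD34 and FcγRII/III, and Cd34 itself was at 441 to 474 CPM in WT GMP and 267 to 388 CPM in KO GMP, and at 717 to 759.8 CPM in WT CMP and 601 to 722.5 CPM in KO CMP. Of the genes of FcγRII/III, Fcgr3 was at 209.6 to 232 CPM in WT GMP and 202 to 258 CPM in KO GMP, and it fell in CMP from 7.32 to 11.8 CPM to 3.86 to 4.53 CPM. Fcgr2b rose in GMP, from 119 to 129.8 TPM in WT to 151 to 164 TPM in KO. The 8 markers of myeloid progenitors, among them Cd34, Fcgr3 and Fcgr2b, summed to 26010 to 30540 TPM in WT GMP and 32420 to 36410 TPM in KO GMP. Ctsg, Elane, Fcgr2b and Mpo passed as higher in KO GMP, and Cd34, Csf1r and Irf8 as lower. Itgam encodes the antigen CD11b, a usual lineage marker, and whether CD11b was in the lineage cocktail of the sort is not given in the sources used here. The part of these markers and gates in the change of Itgam was not tested.

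Itgb2, the beta chain of Itgam, and Itgal, the other alpha member that pairs with Itgb2, changed less than Itgam in GMP and CMP. Itgal in GMP had 174, 178 and 168 CPM in WT and 324, 254 and 328 CPM in KO, with no overlap, a 1.74-fold rise (log2 fold change 0.80, SE 0.10, adjusted p = 0.000324). Itgb2 in GMP rose 1.62-fold, from 60.4, 53.3 and 63.6 CPM to 79.4, 115 and 93.0 CPM (log2 fold change 0.70, SE 0.13, adjusted p = 0.00337). All 3 chains of LFA-1 and Mac-1 were thus higher in KO GMP, and the largest of the 3 changes was in the least abundant one. In CMP neither Itgal nor Itgb2 passed (log2 fold changes 0.03 and -0.07, adjusted p = 0.837 and 0.612). In MEP, where they are scarce, Itgb2 fell from 25.2, 17.7 and 21.7 CPM to 15.1, 12.4 and 16 CPM (log2 fold change -0.57, SE 0.15, adjusted p = 0.0254). Itgal in MEP had 9.69, 6.36 and 9.11 CPM in WT and 5.34, 5.49 and 7.20 CPM in KO, with a log2 fold change of -0.48 (SE 0.19) and an adjusted p of 0.117, or 0.0682 with neighbouring WT and KO columns paired.

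As a share of the summed TPM of the 4 alpha chains that pair with Itgb2 (Itgal, Itgam, Itgax and Itgad), Itgam made up 23.8% to 26.9% in WT GMP and 53.0% to 67.6% in KO GMP. In CMP the share was 11.3% to 12.9% in WT and 21.5% to 36.9% in KO, and in MEP WT mice lay at 16.8% to 17.7% and KO mice at 15.1% to 22.6%. The groups did not overlap in GMP or CMP and overlapped in MEP. With 3 mice a group, the smallest two-sided p an exact permutation test allows is 0.1, so these shares are given as values.

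**Figure D3:**
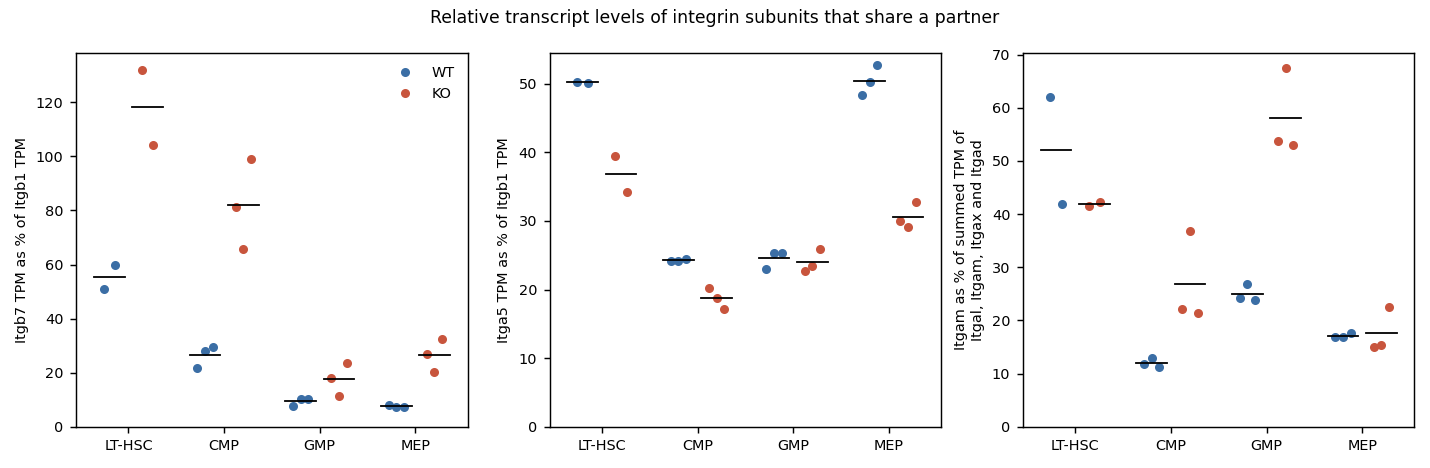
Transcript level of Itgb7 and of Itga5 as a percentage of Itgb1 TPM, and Itgam TPM as a percentage of the summed TPM of the alpha chains that pair with Itgb2, in every library (points) with group means (bars), for WT (blue) and KO (red). Itgb7 reached 65.7% to 98.9% of Itgb1 in KO CMP against 21.6% to 29.5% in WT CMP, and Itga5 in MEP fell from 48.3% to 52.8% of Itgb1 in WT to 29.1% to 32.8% in KO.

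Itgb7, the beta chain of the gut-homing integrin, rose in CMP and MEP. In MEP it had 15.8, 15.3 and 14.8 CPM in the WT mice and 50.5, 40.1 and 58.8 CPM in the KO mice, a 3.25-fold rise with no overlap (log2 fold change 1.70, SE 0.13, adjusted p = 9.80e-05). In CMP it went from 44.8, 54.7 and 61.5 CPM to 116, 105.5 and 135 CPM, a 2.21-fold rise (log2 fold change 1.15, SE 0.12, adjusted p = 0.000435). Markers of several cell types differed in the same CMP libraries. Of the 8 erythroid markers 7 rose in KO CMP (sums of 954 to 1050 TPM in WT and 1380 to 1566 TPM in KO), and of the 8 markers of myeloid progenitors 5 fell (3831 to 4636 TPM and 1689 to 2353 TPM). Of the 7 megakaryocyte markers 2 rose and 5 fell in KO CMP (735.8 to 1077 TPM and 574 to 589 TPM), and 5 of the 7 basophil and mast cell markers fell (123.5 to 304 TPM and 94.7 to 95.1 TPM). Their part in the changes of Itgb7, Itga4, Itga5 and Itgb1 in CMP was not tested. The same 7 megakaryocyte markers summed to 30.2 to 51.1 TPM in WT MEP and 80.3 to 102 TPM in KO MEP, with 4 higher and 0 lower. Their sums in LT-HSC were 216.5 to 260 TPM in WT and 375 to 421 TPM in KO, with 0 of the 7 passing. The part of these markers in the Itgb7 values of MEP and LT-HSC was not tested. Itgb7 in the 2 KO LT-HSC libraries, at 164 and 177 CPM, was above the 2 WT libraries, at 63.4 and 98.1 CPM. The log2 fold change there was 1.08 (SE 0.32) and did not pass (adjusted p = 0.650 by edgeR), and it was the 1 member with an unadjusted p under 0.05 in LT-HSC, where DESeq2 also called 0 members. Without WT replicate 1 Itgb7 passed (log2 fold change 0.82, adjusted p = 0.0682), and without WT replicate 2 both Itgb7 (1.39, adjusted p = 1.05e-05) and Itgb2 (0.81, adjusted p = 0.0322) did. In GMP the KO mice had 23.2, 13.5 and 27.6 CPM against 13.9, 17.1 and 16.7 CPM in WT, so the groups overlapped through KO mouse 304 (adjusted p = 0.195). KO mouse 304 also had the lowest Itgb7 of the KO mice in CMP and MEP.

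Its alpha partner Itga4 rose by a small amount in the same 2 precursor populations. In CMP Itga4 went from 435, 379 and 415 CPM to 509, 520.1 and 499 CPM (1.24-fold, log2 fold change 0.31, SE 0.06, adjusted p = 0.00848). In MEP it went from 344, 363 and 419 CPM to 455, 458.5 and 448.5 CPM (1.21-fold, log2 fold change 0.27, SE 0.07, adjusted p = 0.0271), and the groups did not overlap in either. In GMP the 6 mice overlapped at 269.8 to 337 CPM (adjusted p = 0.800). In LT-HSC much of the Itga4 TPM lay on other transcripts of the gene, and the coding transcript Itga4-201 held 34.0% to 42.2% of the TPM there against 88.4% to 97.4% in precursors.

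The ratio of the 2 beta chains that can pair with Itga4 was set against genotype in the same libraries. Itgb7 had 7.18% to 8.14% of the TPM of Itgb1 in WT MEP and 20.1% to 32.4% in KO MEP. In CMP the ratio was 21.6% to 29.5% in WT and 65.7% to 98.9% in KO. The 2 WT LT-HSC libraries had 51.1% and 59.8% and the 2 KO libraries 104% and 132%, so Itgb7 transcripts outnumbered those of Itgb1 per length in both KO libraries. In GMP the groups lay at 7.84% to 10.3% and 11.5% to 23.7%.

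Itga5 fell in every precursor population. In CMP it went from 86.8, 81.8 and 86.8 CPM in the WT mice to 50.5, 51.5 and 42.0 CPM in the KO mice, a 1.77-fold fall (log2 fold change -0.83, SE 0.08, adjusted p = 0.000301). In MEP, where Itga5 was highest, it went from 161, 174 and 183 CPM to 95.4, 102 and 102 CPM (log2 fold change -0.79, SE 0.06, adjusted p = 9.81e-05). In GMP it went from 69.1, 72.6 and 70.5 CPM to 50.3, 49.8 and 51.3 CPM (log2 fold change -0.49, SE 0.06, adjusted p = 0.000329). The groups did not overlap in any of the 3, and the mice within a group differed by little. In LT-HSC the KO libraries, at 85.8 and 103 CPM, were below the WT libraries, at 108 and 150.5 CPM, with a log2 fold change of -0.45 (SE 0.30) that did not pass (adjusted p = 0.876).

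Itgb1 fell in CMP and GMP and did not pass in MEP. In CMP it had 304, 287 and 302 CPM in WT and 209, 234.5 and 208.5 CPM in KO (log2 fold change -0.45, SE 0.06, adjusted p = 0.0015). GMP had nearly the same change, from 255, 241 and 235.5 CPM to 187, 179.7 and 166 CPM (log2 fold change -0.46, SE 0.06, adjusted p = 0.000826). In MEP the groups overlapped, at 278, 288 and 291 CPM in WT and 265, 294 and 264 CPM in KO (log2 fold change -0.06, SE 0.05, adjusted p = 0.515). In MEP, where Itga5 fell and Itgb1 did not pass, Itga5 went from 48.3% to 52.8% of the TPM of Itgb1 in WT to 29.1% to 32.8% in KO.

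Itga6 rose in GMP and fell in MEP. The GMP values were 97.7, 97.6 and 93.6 CPM in WT and 203, 212 and 196 CPM in KO, a 2.11-fold rise (log2 fold change 1.08, SE 0.06, adjusted p = 4.85e-06). The MEP values were 36.2, 23.9 and 31.8 CPM in WT and 22.4, 17.3 and 23.7 CPM in KO (log2 fold change -0.54, SE 0.17, adjusted p = 0.0515), and WT mouse 305 came close to the highest KO mouse. That call was lost (adjusted p of 0.114 to 0.162) when mouse 300, 301, 304 or 309 was left out. In CMP the groups overlapped at 129 to 171 CPM (adjusted p = 0.496). A transcript annotated as processed and not protein-coding, Itga6-203, held 37.4% to 47.1% of the Itga6 TPM in precursors, and with protein-coding transcripts alone the log2 fold change was 1.08 in GMP and -0.52 in MEP (adjusted p = 1.78e-05 and 0.0817).

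Cxcr4, the marrow retention receptor, changed little in the 2 populations where it is abundant. In GMP it had 179.6, 151 and 173 CPM in WT and 203, 198.7 and 199 CPM in KO, a 1.19-fold rise (log2 fold change 0.26, SE 0.07, adjusted p = 0.0260). That call was lost when all 18 precursor libraries shared 1 estimate of the spread (adjusted p = 0.216), and the TPM values of the groups overlapped. In CMP it had 116, 130.3 and 163 CPM in WT and 98.9, 104 and 135 CPM in KO, with a log2 fold change of -0.27 (SE 0.14, adjusted p = 0.257). With neighbouring columns paired, the adjusted p in CMP was 0.00228. In MEP Cxcr4 fell from 26.0, 23.0 and 25.3 CPM to 17.4, 11.2 and 17.8 CPM, a 1.60-fold fall without overlap (log2 fold change -0.68, SE 0.16, adjusted p = 0.0212).

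Selplg fell in MEP alone among the tests as fitted. It had 72.8, 51.1 and 64.9 CPM in WT MEP and 45.3, 37.5 and 50.2 CPM in KO MEP (1.42-fold, log2 fold change -0.51, SE 0.14, adjusted p = 0.0372). As for Itga6, the call was lost (adjusted p of 0.104 to 0.121) when mouse 300, 301, 304 or 309 was left out. In CMP the log2 fold change was -0.16 (SE 0.11, adjusted p = 0.414, or 0.0532 with neighbouring columns paired), and in GMP it was -0.04 (SE 0.07, adjusted p = 0.713). In MEP 4 of the 8 erythroid markers rose in KO and 1, Car1, fell (median log2 fold change 0.31). Because Car1 leads that list, with a mean of 4499 TPM in WT and 2172 TPM in KO, the sum was 4839 to 5996 TPM in WT and 3474 to 3918 TPM in KO. The 7 megakaryocyte markers summed to 30.2 to 51.1 TPM in WT and 80.3 to 102 TPM in KO, with 4 higher and 0 lower. The markers of myeloid progenitors, whose own populations carried more Selplg and Cxcr4, summed to 19.9 to 55.4 TPM in WT MEP and 23.4 to 34.1 TPM in KO MEP. Late neutrophil markers summed to 28.9 to 103 TPM in WT MEP and 11.6 to 26.7 TPM in KO MEP. Basophil and mast cell markers went from 3.89 to 7.82 TPM to 1.49 to 3.10 TPM. T and NK cell markers went from 7.53 to 13.6 TPM to 3.39 to 6.96 TPM. The LT-HSC list rose from 2.24 to 8.61 TPM to 12.2 to 13.9 TPM, and the monocyte, B cell and eosinophil lists overlapped between the groups. The part of these lists in the falls of Selplg, Cxcr4, Itgb2, Itga5 and Itga6 in MEP was not tested.

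The effect of KO was then compared between populations in the same mice, as the interaction of genotype and population. GMP and MEP differed for all 10 members (26.8% of all genes passed), with 7 effects more positive in GMP and 3 (Itga4, Itgb1 and Itgb7) more positive in MEP. The largest difference was that of Itgam, where the effect in GMP exceeded that in MEP by 2.75 on the log2 scale (SE 0.32, adjusted p = 4.61e-05). GMP and CMP differed for 8 members (21% of all genes), all but Itgb1 and Selplg, and the effect on Itga6 was 1.19 higher in GMP (SE 0.16, adjusted p = 0.000207). MEP and CMP differed for 4 members (13.1% of all genes), with Itgb1 and Itgb7 more positive and Itgal and Itgam more negative in MEP. That count was 2 without mouse 301, without mouse 308, without mouse 309 and without the mouse as a block.

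Several of these calls depended on the setting or on 1 mouse. Between GMP and MEP the count was 9 with median-of-ratios factors or the length offset, where Itga4 was lost (adjusted p = 0.116 and 0.145), and 7 to 9 with a mouse left out. Itga4 was lost without mouse 300, 301, 304, 305 or 308, Itga5 without 301 or 309, and Selplg without 301 or 304 (adjusted p of 0.106 to 0.286). Between GMP and CMP the count was 6 to 8. Itga4 was lost with the length offset (0.137) and without mouse 301, 304, 305 or 308, Cxcr4 without the mouse as a block (0.117) and without mouse 301, 304, 305 or 309, Itgb7 without the block (0.109) and Itga5 without mouse 309 (0.106). Between MEP and CMP Itgb7 was lost without the block (0.303) and without mouse 301, 305, 308 or 309, and Itgal was lost without the block (0.131), with the length offset (0.272) and without any mouse but 305. The calls for Itgam, Itgal, Itgb2 and Itga6 with GMP set against either population passed in every setting run. So did those for Itgb7, Itgb1 and Cxcr4 with GMP set against MEP, and for Itgam and Itgb1 with MEP set against CMP.

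Other genes of adhesion and migration were taken from 5 lists, whose counts are to be read against the 23.4% of all genes that passed in CMP, 33.9% in GMP and 29.4% in MEP. Among 18 other integrin subunits, 4 were higher and 4 lower in KO CMP of 15 tested, 2 and 2 of 12 in GMP, and 3 and 0 of 10 in MEP, which in GMP and MEP is close to those shares. Itgax, the CD11c chain that also pairs with Itgb2, rose in all 3, from 1.93 to 2.61 TPM in WT CMP to 13.8 to 36.7 TPM in KO CMP (log2 fold change 3.43, SE 0.35, adjusted p = 0.000329). Its rises in GMP and MEP were 2.05 and 1.5 on the log2 scale at levels of at most 4.32 TPM. The fibrinogen receptor chains of megakaryocytes, Itga2b and Itgb3, fell in CMP (log2 fold changes -0.57 and -1.11) and in GMP (-0.98 and -0.50), while in MEP Itgb3 rose by 1.03 at under 1 TPM and Itga2b did not pass (0.40, adjusted p = 0.4296). Itgb5 rose in CMP and GMP (1.05 and 1.55).

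Of 28 genes that activate integrins or link them to actin, 26 were tested in each precursor. In GMP 13 were higher and 3 lower in KO, with a median log2 fold change of 0.19 against -0.01 over all genes, and the 13 include the talin gene Tln1, the kindlin gene Fermt3 and vinculin (Vcl). In CMP 4 were higher and 5 lower, and in MEP 6 were higher and 5 lower, beside 33.9% of all genes in GMP, 23.4% in CMP and 29.4% in MEP. The Src family kinase gene Fyn fell in all 3, most in GMP, from 10.8 to 12.1 TPM in WT to 1.75 to 2.50 TPM in KO (log2 fold change -2.39, SE 0.15, adjusted p = 1.07e-05). Ptk2, the focal adhesion kinase gene, rose in all 3 at levels below 8 TPM. Parvb, which encodes an actin-binding adaptor, rose in CMP and MEP (1.33 and 1.11) and fell in GMP (-1.08), and paxillin (Pxn) rose in GMP (0.48) and fell in CMP and MEP (-0.24 and -0.75).

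**Figure D4:**
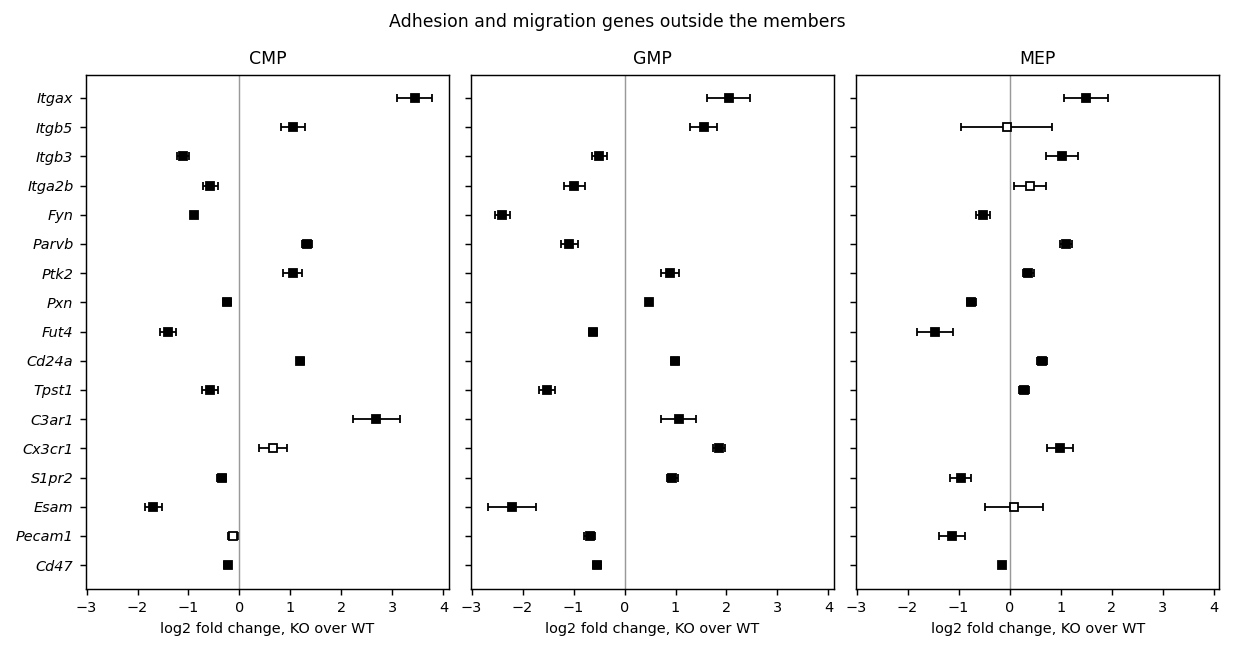
log2 fold change of KO over WT in CMP, GMP and MEP for the genes named from the 5 lists, fitted with edgeR, with bars of 1 SE and filled squares for an FDR under 0.1. Itgax (3.43) and C3ar1 (2.69) in CMP had the largest rises, and Fyn (-2.39) and Esam (-2.21) in GMP the largest falls. C3ar1 was not tested in MEP. Levels were low for C3ar1 in CMP (means of 0.029 TPM in WT and 0.21 TPM in KO) and Esam in GMP (0.81 and 0.15 TPM).

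PSGL-1 binds selectins only when it is decorated. Several genes of that pathway passed in CMP and GMP, where Selplg itself did not pass as fitted, while in MEP Selplg passed as well. Of 17 listed genes, 4 were higher and 5 lower in CMP, 6 and 5 in GMP, and 5 and 3 of 16 tested in MEP. The shares of all genes that passed were 23.4%, 33.9% and 29.4%. Fut4, a fucosyltransferase that helps build selectin ligands, fell in all 3 (log2 fold changes -1.40, -0.62 and -1.46 in CMP, GMP and MEP). Its level in MEP was low, at means of 0.63 TPM in WT and 0.23 TPM in KO. Fut7, which adds fucose to sialylated chains, rose in CMP and GMP. Tpst1, which sulfates tyrosines, fell in CMP and GMP (-0.58 and -1.52) and rose in MEP (0.28). Cd24a, the gene of another selectin ligand, rose in all 3 (1.19, 0.99 and 0.64).

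Among 22 chemoattractant receptors, 5 were higher and 1 lower of 18 tested in CMP, 7 and 2 of 15 in GMP, and 4 and 2 of 10 in MEP. Cx3cr1, the fractalkine receptor, rose in GMP from 5.91 to 7.73 TPM to 20.8 to 24.9 TPM (log2 fold change 1.85, SE 0.12, adjusted p = 1.40e-05). C3ar1, the receptor of complement C3a, rose in CMP and GMP at levels under 0.3 TPM. The sphingosine-1-phosphate receptor gene S1pr2 rose in GMP (0.94) and fell in CMP and MEP (-0.35 and -0.96). Of 15 ligands and counter-receptors, 0 were higher and 2 lower of 12 tested in CMP, 1 and 5 of 12 in GMP, and 2 and 4 of 11 in MEP. The junction molecule Esam fell in CMP from 10.03 to 14.1 TPM to 3.69 to 4.77 TPM (log2 fold change -1.69). It also fell in GMP (-2.21), at low means of 0.81 TPM in WT and 0.15 TPM in KO. Pecam1 fell in GMP and MEP (-0.68 and -1.13), and Cd47, the signal against engulfment, fell in all 3 (-0.23, -0.54 and -0.15). In LT-HSC 0 genes of these lists passed, with 9 at an unadjusted p under 0.05 of 95 tested.

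Over the 18 precursor libraries, several members followed the split between MEP and the other populations. The genes whose log2 CPM was most like that of a member, among 9372 genes with a mean of at least 10 CPM, were Slc9a3r1 for Itgal (Pearson r = 0.997), Arhgap30 for Selplg (r = 0.994), Fam102b for Cxcr4 (r = 0.993), Entpd1 for Itgam (r = 0.989), Lpar6 for Itgb2 (r = 0.988) and Lasp1 for Itga6 (r = 0.987). The values for Smim13 with Itga5 (r = 0.962), Gp9 with Itgb7 (r = 0.931) and 2610301B20Rik with Itgb1 (r = 0.924) were lower. Gp9 encodes a platelet receptor subunit, and it rose in KO in CMP, GMP and MEP. These libraries share mice and fall into 3 populations, so the coefficients are descriptions.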

How the data were processed

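RNA-seq of sorted LT-HSC, CMP, GMP and MEP cells gave 22 libraries in 8 groups. Per the labels and methods, the authors pseudoaligned paired-end reads with kallisto to Ensembl mouse transcripts (mm10) and deposited, for each library, an estimated count, a TPM value and an effective length for every transcript. The deposited TPM values are scaled by kallisto for effective length and library, and the effective lengths were used only as an offset in 1 alternative. Fragments shared by transcripts are split between them in the estimated counts.

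The 115088 transcripts were paired with the GENCODE vM21 annotation of GRCm38 (114200 matched, 99.2%). Estimated counts and TPM were summed per gene, and counts were rounded to whole numbers. Between 40804031 and 65930737 counts per library fell on genes, with a median of 52785379.5. Each population was fitted with edgeR 4.0.16 in R 4.3.3 (TMM, filterByExpr, quasi-likelihood F-test) with the genotype as the term, and p-values were adjusted over all genes tested with a threshold of 0.1 for the FDR. Population differences and interactions came from a joint fit of all CMP, GMP and MEP libraries (18) that blocked on the mouse. SE is the absolute log2 fold change over the square root of F. The median log2 ratio of mean TPM, KO over WT, of all genes tested was -0.41 (LT-HSC), 0.10 (CMP), -0.15 (GMP) and 0.02 (MEP). So that this shift does not enter the log2 fold changes, they were fitted on the TMM scale, where the medians were -0.16, -0.003, -0.006 and -0.002. Levels and marker sums given in TPM still carry the shift.

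The members and lists were chosen with earlier results of these data known. The genes named were the 10 members and Arid1a, the 2 genes closest to each member in log2 CPM (the closer is printed), and up to 4 genes a list that passed in the same direction in at least 2 of the 3 precursor populations, taken by the largest mean change; genes of the lists named beyond these were picked after their values were seen. A few genes that this rule names are not reported here. The populations of a mouse are paired by animal. Deviations from group means of the same mouse correlated with a mean r of 0.30 for CMP with GMP, 0.54 for CMP with MEP and 0.49 for GMP with MEP. For different mice of the same genotype the means were -0.14, -0.24 and -0.23. For CMP with GMP the ranges overlapped, since the same mouse gave r as low as -0.04 and different mice r up to 0.35. WT and KO libraries that neighbour each other in the authors' supplementary column order correlated with r of at least 0.42 in CMP, 0.46 in GMP and 0.24 in MEP. Those that are not neighbours had r of at most 0.22, -0.17 and 0.42, so in MEP the ranges overlapped. Neighbours were paired in an alternative. Other alternatives were median-of-ratios factors, no filter on low counts, the length offset, DESeq2 1.42.0, 1 fit of all precursors, each library left out in turn and, added after seeing the data, protein-coding transcripts only. The fits were tested on simulated counts. Promoter letters are from RefSeq (GRCm38.p6), and 6 of the 10 members matched. Each precursor library is 1 mouse, whether LT-HSC libraries pool mice is not given in the sources used here, and p-values measure the spread between these libraries.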

Additional observations from a re-analysis of the deposited data

Results flagged for a closer look

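The effect of KO on a member differed between populations, by the interaction test at an FDR of 0.1 (edgeR with the mouse as a block), in 22 of the 30 cases examined. Of all genes, 26.8% passed for GMP against MEP, 21% for GMP against CMP and 13.1% for MEP against CMP. The cases are not separate, since each of these comparisons follows from the others. With GMP set against MEP, the effect on the log2 scale was higher in GMP by 2.75 for Itgam, 1.61 for Itga6, 1.29 for Itgal, 1.27 for Itgb2, 0.97 for Cxcr4, 0.48 for Selplg and 0.31 for Itga5. It was lower in GMP for Itgb7 (-1.28), Itgb1 (-0.39) and Itga4 (-0.31). With GMP set against CMP, it was higher in GMP by 1.19 for Itga6, 1.06 for Itgam, 0.78 for Itgb2, 0.77 for Itgal, 0.54 for Cxcr4 and 0.35 for Itga5, and lower for Itgb7 (-0.76) and Itga4 (-0.35). With MEP set against CMP, it was higher in MEP for Itgb7 (0.52) and Itgb1 (0.39) and lower for Itgam (-1.70) and Itgal (-0.52). Adjusted p-values over these cases ran from 1.31e-05 for Itga6 to 0.0960 for Itga4, both with GMP set against MEP. Of these, the calls for Itga4, Itga5 and Selplg (GMP against MEP), Itga4, Itga5, Itgb7 and Cxcr4 (GMP against CMP) and Itgb7 and Itgal (MEP against CMP) were lost under at least 1 other setting or without 1 mouse. No group of samples was large enough to examine single libraries as outliers.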

How the results depend on the processing

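The number of members past the threshold stayed within 1.5 times its value for every comparison and setting run, with 2 exceptions. For MEP against CMP in the effect of KO it was 4, and it was 2 with no block for the mouse (no replicate block) and 2 to 6 when each mouse was left out in turn. For LT-HSC it was 0, and 0 to 2 when each library was left out, where the remaining single library of a group is assumed to vary like the other group. Pairing neighbouring columns as a replicate block gave 7 members in CMP, 7 in GMP, 8 in MEP and 0 in LT-HSC, whose 2 pairs share only a number (r = 0.12). Calls over all genes rose as well, from 4030 to 5385 of 17214 in CMP and from 5550 to 7151 of 16383 in GMP. They rose from 4638 to 5261 of 15777 in MEP and from 18 to 115 of 22733 in LT-HSC. Beside the 3 calls named for Cxcr4, Selplg and Itgal, that block changed no other call of a member.

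Directions turned only where the difference had not passed. Itgal in WT GMP against WT CMP was 0.023 with median-of-ratios factors and with DESeq2, 0.037 with protein-coding transcripts alone, and -0.013 to 0.041 with a mouse left out. Itgal in LT-HSC was 0.11 with the length offset and -0.55 to 0.52 with a library left out. The difference of Itgb1 in GMP less CMP was -0.064 with protein-coding transcripts alone and -0.074 to 0.053 with a mouse left out. With 1 library or mouse left out, the log2 values also crossed 0 for Itgal in CMP (-0.032 to 0.07), Itga4 (-0.111 to 0.042) and Selplg (-0.096 to 0.019) in GMP, Itgam (-0.516 to 0.013), Itgb1 (-0.21 to 0.26) and Selplg (-0.23 to 0.54) in LT-HSC, Itgam in MEP (-0.087 to 0.459), Itgb7 in WT GMP against WT MEP (-0.039 to 0.169), and Itga4 (-0.142 to 0.032) and Itga5 (-0.063 to 0.109) in MEP less CMP. The cause was not tested. The lowest count of a member in an MEP library was 34.3 for Itgam, against 270 for Itgal.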
